A study of Mus musculus with 6 samples.

Results

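DES epithelial cluster 2 is a group of 535 cells from the uterus of mice exposed to diethylstilbestrol (DES), a synthetic estrogen, as newborns. Its cells were those that the authors' metadata place in cluster 2 of their clustering of DES epithelial cells and that have a column in the count table. They are 535 of the 4608 clustered DES epithelial cells with counts, which fall into 16 clusters, and of 48699 cells in both single-cell libraries. Female CD-1 mice were injected under the skin in the first days of life with corn oil (CO) or with DES at 1 mg/kg/day, and uteri were taken at 12 months of age, with the CO mice in estrus and the DES mice in persistent estrus. Cells from 2 CO mice (dose 0) were pooled into 1 library and cells from 4 DES mice into another, and the cells of the pooled mice cannot be told apart. Tissue sections of 2 CO and 2 DES mice were measured by spatial transcriptomics, 1 section per mouse. One tissue section of each treatment was described by the study as limited (CO section 2 held a tissue fold, and few clusters could be told apart in DES section 2), so genes called in the sections are given with and without them.

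The epithelial label was checked against marker genes. All 535 cells carried the annotation Epithelial, and 533 of them held at least 1 unique molecular identifier (UMI, one counted RNA molecule) of Epcam, the epithelial cell adhesion molecule, as did 4051 of the 4073 cells of the other 15 clusters. Summed over the cells and scaled to CPM (UMIs of a gene in 1000000 UMIs), Epcam stood at 830.0 CPM (exact Poisson 95% interval 815 to 845) in cluster 2 and at 803 CPM (799 to 808) in the other clusters pooled. Of the keratins of simple epithelium, Krt8 stood at 828 CPM against 871 CPM and Krt18 at 723 CPM against 674 CPM. The basal cell genes Krt14 and Trp63 were at 6.74 CPM and 0.472 CPM. The study chose epithelial cells by Krt18 and took out cells with both Krt14 and Trp63 before it formed the clusters, so the levels of these 3 genes follow from that choice and are no check of the label. Cluster 2 held 14839016 UMIs, at medians of 19323 UMIs and 4344 genes a cell, and the medians of the other clusters ran from 6343.5 to 65030.5 UMIs. Of the barcodes, 180 occurred in both libraries, 4 of them in cluster 2 cells.

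Because DES cells came from 1 library, no test between cells or clusters was made. Intervals of levels, ratios and shares cover counting error only, and not the spread between mice. The clusters were also formed on these same counts, so a difference between cluster 2 and the other clusters describes the cluster and is not a test of it.

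Of the 5 genes with the largest ratios of cluster 2 to the other clusters at 50 CPM or more, 4 belonged to the major histocompatibility complex (MHC) class II pathway (Cd74, H2-Aa, H2-Ab1 and H2-Eb1). MHC class II molecules are pairs of an alpha and a beta chain that carry peptides from the endosome to the cell surface, where CD4 T cells read them. Cd74, the invariant chain, holds the new pair until it reaches the endosome, H2-DM exchanges the remaining piece of it for peptide, and Ciita is the coactivator that switches the genes on through a complex of Rfx proteins and others bound at their promoters. Dendritic cells, macrophages and B cells make these molecules constantly, and many epithelia, that of the uterus among them, make them when stimulated, for example by interferon gamma.

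The promoters of many class II genes share short sequence elements, and those of the H2-DM genes and of chain genes with RNA in cluster 2 that held both elements searched for are shown. The RefSeq promoter table (build GRCm38.p6) gave an entry for H2-Aa, H2-Eb1, H2-DMb1 and H2-DMb2, all on chromosome 17, and none for H2-Ab1 or Ciita. Both of its entries for H2-DMa lacked TGATTGG and are not shown. Each line gives the 150 bases before the start of the gene, 5′ to 3′ on its own strand. Capitals mark TGATTGG, the letters of the Y box, and the TGANG of an X2 box that lay 10 to 25 bases before it. The 4 stretches lie at chr17:34287824-34287973 (minus strand), chr17:34305717-34305866, chr17:34153041-34153190 and chr17:34145099-34145248 (plus strand).
H2-Aa: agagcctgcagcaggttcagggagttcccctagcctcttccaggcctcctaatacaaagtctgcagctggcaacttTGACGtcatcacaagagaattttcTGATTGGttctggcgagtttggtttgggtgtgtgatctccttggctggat
H2-Eb1: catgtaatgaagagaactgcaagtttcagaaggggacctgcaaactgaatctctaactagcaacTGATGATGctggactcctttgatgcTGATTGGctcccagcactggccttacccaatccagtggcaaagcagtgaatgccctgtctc
H2-DMb1: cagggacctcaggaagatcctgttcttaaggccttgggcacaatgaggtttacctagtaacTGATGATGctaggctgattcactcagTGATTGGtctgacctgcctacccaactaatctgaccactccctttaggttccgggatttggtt
H2-DMb2: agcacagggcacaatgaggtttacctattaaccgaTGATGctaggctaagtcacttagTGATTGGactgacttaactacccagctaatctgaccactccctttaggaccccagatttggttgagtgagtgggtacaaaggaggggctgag

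In H2-Aa the TGATTGG began 50 bases before the start and 19 bases separated it from the TGANG before it. The gap was 18 bases in H2-DMb2. H2-Eb1 and H2-DMb1 held 2 overlapping TGANG, both in capitals, with gaps of 20 and 17 bases in H2-Eb1 and of 21 and 18 bases in H2-DMb1. Searched on both strands over 32851 promoters of 300 bases (250 before and 50 after the start), the spaced pair occurred in 207 (0.630%) and TGATTGG alone in 2568 (7.82%). The pair was in the promoters of H2-Eb2 and H2-Ob too, 2 class II genes with no UMI in cluster 2, and it was in no promoter entry of H2-Oa, Rfx5, H2-DMa, Rfxank, Ctss, Ctsl, Lgmn, Ifi30, Serpinf1, Ifitm1, Ifitm3, Cp or Mme. Of these, H2-Oa and Rfx5 held TGATTGG without the pair. Such a match is a run of letters and not a measured binding site.

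Cd74 stood at 1391 CPM (1372 to 1410) in cluster 2 and at 456 CPM (453 to 459.8) in the other clusters pooled, a ratio of 3.05 (exact 95% interval 3.001 to 3.096). Cluster 2 was not the only cluster with a high level. By cluster, Cd74 was 1628 CPM in cluster 7, 1391 CPM in cluster 2, 1380 CPM in cluster 15 and 1065 CPM in cluster 9, then 765, 725 and 699 CPM in clusters 1, 5 and 6. It was 240 CPM in cluster 10 and 135 CPM in cluster 0, and 32.6 to 75.5 CPM in the other 7. The interval of cluster 15 (1337 to 1424 CPM) took in the value of cluster 2, and those of clusters 7 and 9 did not.

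The 3 classical chain genes, which lie within the class II region of chromosome 17 (GENCODE M21, GRCm38), had the same order at the top. H2-Aa (chr17:34282744-34287823) encodes an alpha chain and stood at 180.1 CPM (173 to 187) against 60.1 CPM in the other clusters, a ratio of 2.99 (2.87 to 3.13). H2-Ab1 (chr17:34257689-34269419) encodes its beta partner and stood at 200.1 CPM (193 to 207) against 60.0 CPM, a ratio of 3.34 (3.20 to 3.48). H2-Eb1 (chr17:34305867-34316674), the beta chain of the other class II pair, stood at 116.7 CPM (111 to 122) against 35.7 CPM, a ratio of 3.27 (3.09 to 3.45). For each of the 3, cluster 7 was the highest cluster, with 230.3, 254 and 156 CPM, and cluster 13 the lowest, with 3.68, 2.10 and 2.36 CPM. In cluster 15 they were at 178, 199 and 110.3 CPM, each with an interval that took in the cluster 2 value.

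**Figure D1:**
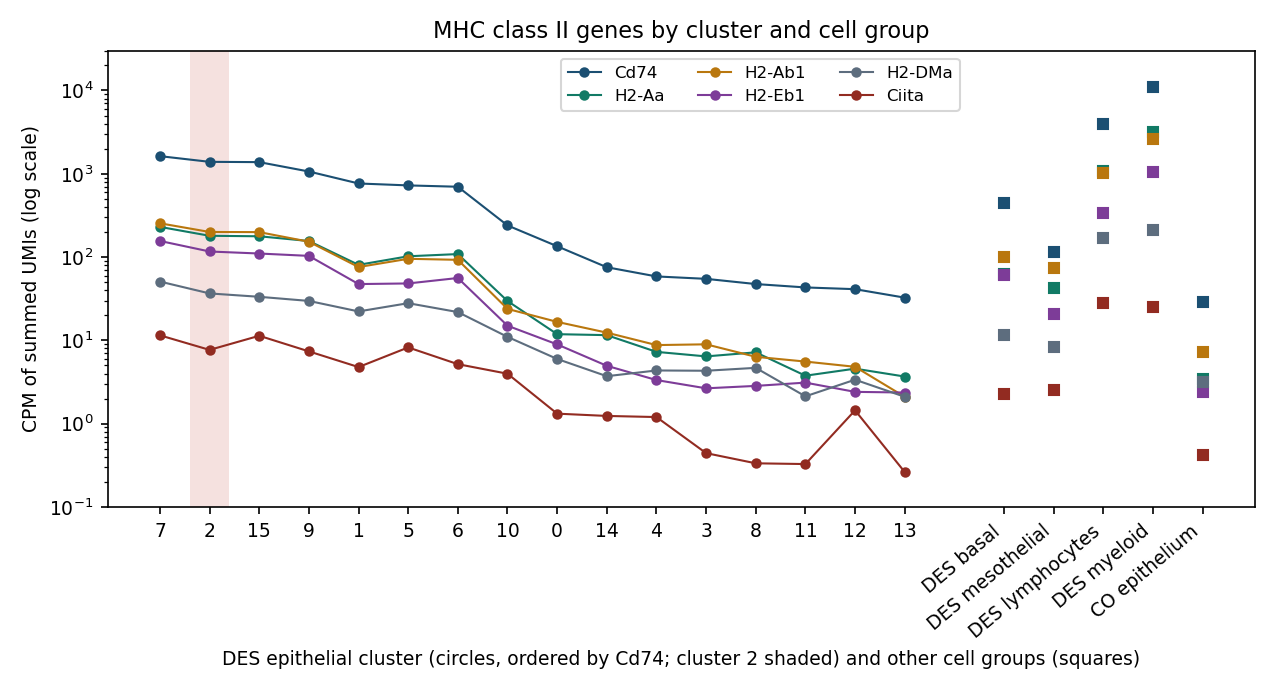
MHC class II genes in the 16 DES epithelial clusters (circles, ordered by Cd74, cluster 2 shaded) and in other cell groups (squares), as CPM of summed UMIs on a log axis. Lines join the clusters of 1 gene for reading only. Cluster 2 comes second for Cd74 at 1391 CPM, behind cluster 7 at 1628 CPM, and Ciita follows the chain genes at a lower level.

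The genes that load these molecules were also higher. H2-DMa, the alpha chain of H2-DM, was 36.6 CPM against 15.2 CPM (ratio 2.41, 2.19 to 2.65). Its beta chains H2-DMb1 and H2-DMb2, near-identical copies whose reads the counting could split wrongly, were 40.9 against 23.1 CPM and 12.0 against 4.86 CPM. Ciita (chr16:10480059-10528418) was 7.68 CPM (6.34 to 9.23) against 3.66 CPM, a ratio of 2.10 (1.70 to 2.57), and cluster 2 ranked 4 of 16 for it, behind cluster 7 at 11.5 CPM. Factors that sit on the promoters whether or not the genes are on differed less. Rfx5 was 11.3 CPM against 10.4 CPM (ratio 1.08, 0.918 to 1.27), Rfxap 20.1 against 16.96 CPM and Rfxank 12.3 against 9.60 CPM.

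Proteases that trim the invariant chain did not move as a group. Ctss, which makes the last cuts in professional antigen-presenting cells, was 50.1 CPM in cluster 2 and 59.9 CPM in the other clusters (ratio 0.837, 0.776 to 0.902). Ctsl, which can do the same in epithelium of the thymus, was 177 against 108 CPM, and Lgmn, an asparagine-specific endopeptidase, 73.4 against 49.3 CPM. H2-DM is held in check by H2-DO in B cells, and the 2 genes of H2-DO were at or near 0 in cluster 2, with 0.135 CPM of H2-Oa and no UMI of H2-Ob, for which 3 UMIs is the limit that a count of 0 allows.

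Of 18 genes listed for the class II pathway, 17 were in the count table and 13 reached 10 CPM in cluster 2 or in the other clusters. Of these 13, 10 were higher in cluster 2 by at least 0.32 on the log2 scale (the fold used for all lists) and 0 lower by as much, with a median log2 ratio of 0.83. H2-DMb2 and Rfxank, both among the higher ones, reached 10 CPM in cluster 2 only and so entered the count through it. Genes of the background could enter in the same way. Over all 8168 genes at that level, 7.9% were higher by this fold and 7.55% lower, and the median log2 ratio was 0.02. These shares are the background of every list count that follows. The cells were clustered on these genes among others, so the count describes what sets the cluster apart.

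Across the 16 clusters the class II genes ran together. The Pearson correlation of log2 CPM with Cd74 was 0.995 for H2-Aa, 0.992 for H2-Ab1, 0.995 for H2-Eb1, 0.988 for H2-DMa and 0.967 for Ciita, and lower for H2-DMb1 (0.882) and H2-DMb2 (0.769). Genes outside class II also ran with Cd74, with 0.802 for Serpinf1, 0.777 for Cp, 0.732 for Clu and 0.617 for Cfi. It was 0.439 for Ctss, 0.291 for Epcam, 0.213 for Rfx5 and 0.144 for Ifitm1. The 16 points share 1 library and the clustering, so these values describe the clusters only. Leukocyte genes did not follow Cd74, with -0.02 for Tyrobp and 0.116 for Ptprc.

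Of the cell groups compared, DES myeloid cells held the most Cd74, at 10969 CPM. DES lymphocytes held 3919 CPM, and DES myeloid cells with high Lyz2 held 214 CPM, below cluster 2. Of the 13 leukocyte markers listed, 6 were under 1 CPM in cluster 2, among them the lymphocyte genes Cd3e and Cd79a at 0.0674 CPM each. Tyrobp, a signalling adaptor of myeloid cells, was 2.09 CPM (1.42 to 2.97) against 2.19 CPM in the other clusters, and Ptprc, the common leukocyte antigen CD45, was 2.70 against 4.61 CPM. The 13 markers together came to 68.6 CPM in cluster 2, against 57.7 to 100.3 CPM in the other 15 clusters. Most of that sum was Cd68 at 41.6 CPM, a lysosomal protein, and Lyz2 at 13.0 CPM.

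The mix of class II RNA varied between cell groups. For every 100 Cd74 UMIs, cluster 2 held 12.9 UMIs of H2-Aa, 14.4 of H2-Ab1, 8.39 of H2-Eb1 and 0.1502 of Tyrobp. The other epithelial clusters held 13.2, 13.1, 7.82 and 0.480. DES myeloid cells held 28.6, 24.1, 9.45 and 25.4. CO epithelial cells, with few Cd74 UMIs, held 12.1, 25.3, 8.24 and 9.16, and DES basal cells 13.98, 22.5, 13.6 and 1.47. Cluster 2 was thus near the other DES epithelial clusters in all 3 chain genes, while its H2-Eb1 was also near that of myeloid cells and the H2-Ab1 of CO epithelium and DES basal cells was near the myeloid value. Leaving out every cell with 2 or more UMIs of any leukocyte marker other than Cd68 and Lyz2, an alternative chosen after the data were seen, removed 30 of the 535 cells.

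The share of cells with class II RNA was compared after drawing 3000 UMIs from each cell, which left out 1 cell of cluster 2 and 48 of the others. A Cd74 UMI was then found in 77.7% of 534 cluster 2 cells (Clopper-Pearson 95% interval 73.9 to 81.2) and in 35.2% of 4025 other cells. Without thinning the shares were 94.2% and 67.6%, at median depths of 19323 and 25654 UMIs. A UMI of at least 1 of H2-Aa, H2-Ab1 and H2-Eb1 was found in 54.9% (50.5 to 59.2) of cluster 2 cells and in 19.8% of the others, or in 80.0% and 49.0% without thinning. Cluster 2 was not the highest here. The thinned share was 71.6% in cluster 7, 57.4% (43.2 to 70.8) in cluster 15 and 56.8% (49.5 to 64.0) in cluster 9. Tyrobp was found in 0.187% of thinned cluster 2 cells (5.05% without thinning) and in 100% of 218 DES myeloid cells, whose median depth was 8647.5 UMIs. The part of free RNA in the class II shares was not tested. In the cluster with the least Cd74, cluster 13, 8.94% of thinned cells held a Cd74 UMI.

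Within cluster 2 the class II level varied from cell to cell. The UMIs of Cd74, H2-Aa, H2-Ab1 and H2-Eb1 together had a median of 14.5 per 10000 UMIs of a cell, with quartiles of 3.55 and 28.6 and a highest cell at 121.7. No UMI of the 4 genes was found in 26 cells (4.86%), and the tenth of the cells with the highest values held 39.4% of the cluster's class II UMIs. In the other clusters pooled the median was 0.755. In those clusters 25.5% of cells held no UMI of the 4 genes, and in cluster 13 43.9%. The highest cell of cluster 2 lay just above the median of DES myeloid cells, 119.1.

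**Figure D2:**
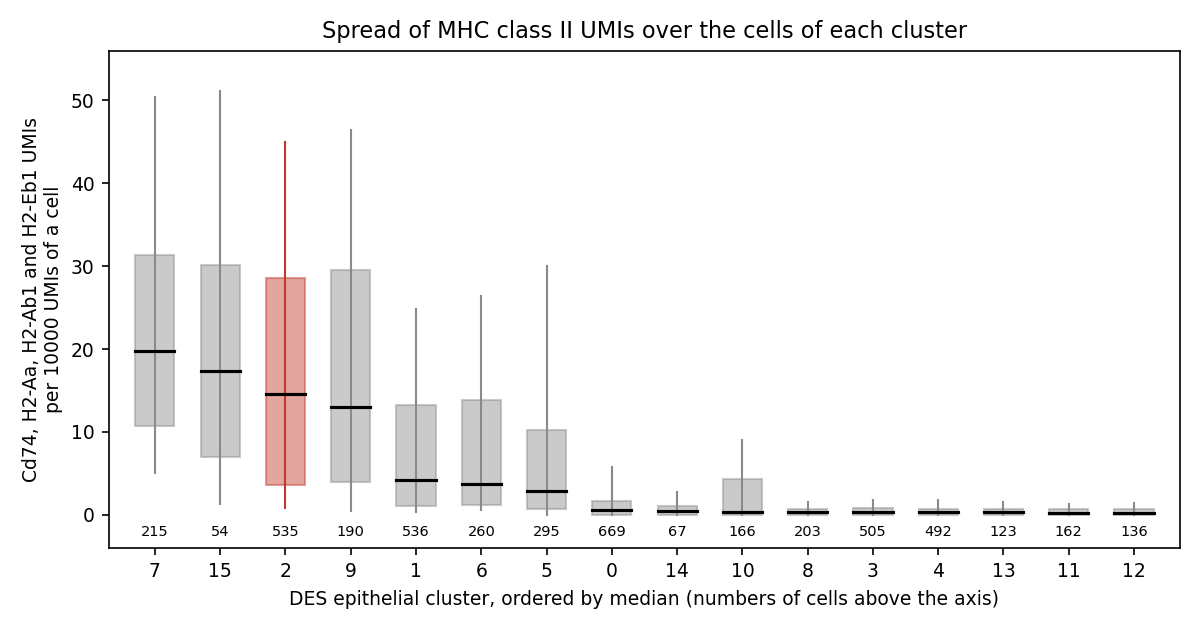
Class II UMIs (Cd74, H2-Aa, H2-Ab1 and H2-Eb1) per 10000 UMIs of a cell, by DES epithelial cluster, with the median (black), the quartiles (box) and the 10th and 90th percentiles (line). Cluster 2 (red, 535 cells) has a median of 14.5, between those of cluster 15 (17.3) and cluster 9 (13.0), and quartiles of 3.55 and 28.6.

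Counting how many of the 4 genes a thinned cell held gave a broad spread. In cluster 2, 19.9% of cells held none, 27.0% held 1, 22.8% held 2, 20.04% held 3 and 10.3% held all 4. In the other clusters 60.9% held none and 2.24% held all 4, and in DES myeloid cells 3.21% and 50.9% did. All 4 were held by 18.1% of cells in cluster 7, 12.6% in cluster 9 and 11.1% in cluster 15.

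Some MHC class I genes, whose products show peptides from inside the cell to CD8 T cells, were higher too. Of 21 measured at 10 CPM or more, 6 were higher by the fold and 0 lower, against 7.9% and 7.55% of all genes. The median log2 ratio was 0.20, and cluster 2 ranked 6 of 16 for the sum of the list. The heavy chains H2-K1 and H2-D1 were 875 against 638 CPM and 753 against 509 CPM, and B2m, their common light chain, was 692 against 503 CPM. The other 3 were the nonclassical genes H2-Q6, H2-Q7 and H2-T23, named after their values were seen. Counting could split reads between these similar genes.

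Genes that interferons induce did not move one way. Of 21 interferon-stimulated genes at 10 CPM or more, 6 were higher and 4 lower, with a median log2 ratio of -0.01. The higher ones were led by membrane proteins that block virus entry. Ifitm1 was 2659 CPM (2632 to 2685) against 1350 CPM, the highest of the 16 clusters, Ifitm3 was 3203 against 2083 CPM and Ifitm2 976 against 732 CPM. Near-identical family members could share reads here too. Among the lower ones were Ifit1, Isg15 and Isg20, named after their values were seen, with Ifit1, a sensor of viral RNA ends, at 22.6 CPM against 39.5 CPM. Ifitm1 did not follow class II across the clusters, as cluster 7 held 1073 CPM of it.

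The interferon gamma list gave 2 higher and 3 lower of 13 genes, with a median log2 ratio of 0.04. Jak2, a kinase of the interferon gamma receptor, was 179 against 139 CPM, and Ifngr1, the receptor itself, 70.2 against 62.6 CPM (ratio 1.12, 1.05 to 1.197). Gbp4, a guanylate-binding protein that interferon gamma induces, was 20.6 against 54.2 CPM and was named after its values were seen. Co-stimulatory molecules give the second signal that T cells read beside class II, and their list came to 59.8 CPM in cluster 2 and 64.98 CPM in the other clusters. Of 10 listed, 3 had no UMI in cluster 2 (Cd80 among them, which allows at most 3 UMIs) and 7 were under 1 CPM, those 3 included. Neither of the 2 at 10 CPM or more passed the fold: Vtcn1, an inhibitory ligand, at 44.4 against 49.3 CPM and Cd276 at 11.2 against 9.83 CPM.

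Outside class II, the gene with the largest ratio was Serpinf1 (chr11:75409769-75422701, minus strand), which encodes the secreted factor PEDF. It was 78.1 CPM (73.7 to 82.7) in cluster 2 and 17.8 CPM in the other clusters, a ratio of 4.38 (4.08 to 4.69), and cluster 2 was the highest of 16, above cluster 7 at 46.4 CPM. Mme, the cell-surface protease neprilysin, was also highest in cluster 2, at 106 CPM (101 to 112) against 50.03 CPM, with cluster 10 next at 82.6 CPM. Cluster 2 was thus above every other cluster, beyond counting error, for Serpinf1, Mme and Ifitm1 among the 15 genes with the largest ratios.

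The rest of those 15 were shared with other clusters. Pla2g7, which breaks down platelet-activating factor, was 53.9 against 20.1 CPM, with cluster 11 higher at 67.1 CPM. Cyp21a1, the steroid 21-hydroxylase, was 50.1 against 20.99 CPM, Basp1 54.5 against 23.7 CPM, the long noncoding RNA Rmst 62.8 against 29.3 CPM and Emb, a partner of monocarboxylate transporters, 52.5 against 26.9 CPM. Reads of Cyp21a1 could be split with its pseudogene.

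Complement and metal-binding genes made up 3 of the 15. Cfi, the protease that inactivates C3b and C4b, was 161 CPM (155 to 168) against 68.6 CPM and equalled cluster 1 at 163 CPM within its interval. Cp, the copper-carrying ferroxidase ceruloplasmin, was 119 against 51.1 CPM, with cluster 7 at 177 CPM. Clu, a chaperone that also blocks the terminal complement complex, was 112 against 51.1 CPM, with cluster 15 at 467 CPM.

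**Figure D3:**
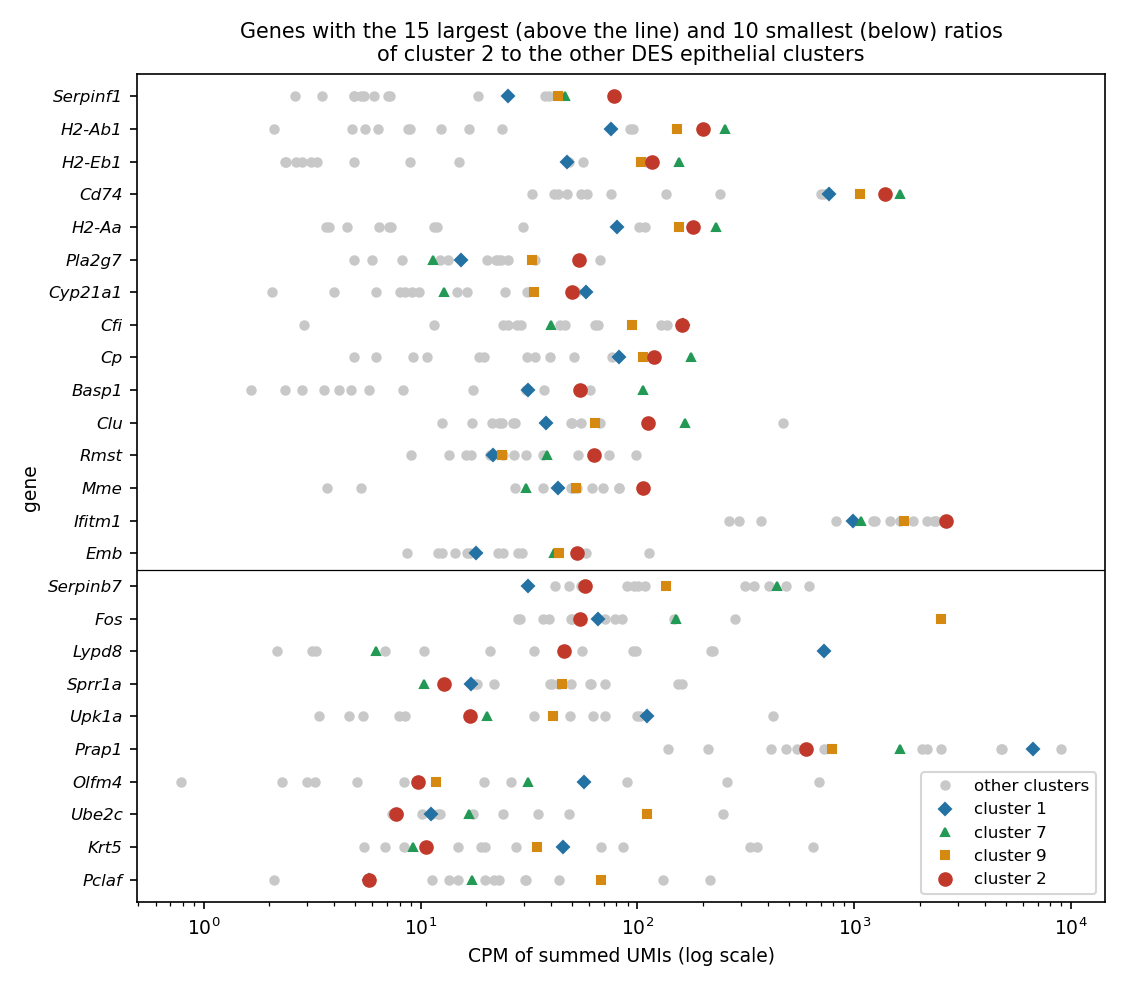
CPM of summed UMIs (log axis) of the genes with the 15 largest ratios (above the line) and the 10 smallest ratios (below) of cluster 2 to the other DES epithelial clusters, in every cluster. Cluster 2 (red) is the rightmost point for Serpinf1, Mme and Ifitm1, cluster 7 (green) lies to the right of it for the class II genes, and among the smallest ratios cluster 2 lies left of cluster 1 (blue) for Prap1, Upk1a, Olfm4 and Lypd8.

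Of 18 complement genes, 8 reached 10 CPM, 6 of these were higher and 0 lower, with a median log2 ratio of 0.48. The list sum was highest in cluster 1, at 3106 CPM, and cluster 2 ranked 3 of 16, at 2020 CPM. Beside Cfi and Clu, Cd55, a membrane inhibitor, was 127 against 101 CPM. Cfb and Serping1, named after their values were seen, were also higher, Cfb at 49.1 against 33.9 CPM, an activator, and Serping1 at 28.6 against 18.4 CPM, an inhibitor of the first component. C3 itself was 988 against 928 CPM (ratio 1.06).

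Metal and iron handling gave 8 higher and 1 lower of 13 genes, with a median log2 ratio of 0.40. For the sum of the list cluster 2 ranked 4 of 16, and cluster 15 was the highest. Ltf, lactoferrin, an iron-binding protein of secretions that estrogen induces in the mouse uterus, was 4019 CPM (3987 to 4052) against 2188 CPM. Lcn2, which binds bacterial iron carriers, was 3325 against 2590 CPM. The metallothioneins Mt1 and Mt2 were 549.6 against 387 CPM and 172 against 114 CPM, and the metalloreductase Steap4, of the same list, was 45.5 against 16.3 CPM (ratio 2.79), all 3 named after their values were seen. The lower gene was Tfrc, the transferrin receptor, at 23.8 against 37.5 CPM, also named afterwards. The ferritin chains did not pass the fold, with Fth1 at 1723 against 1959 CPM and Ftl1 at 1687 against 1632 CPM.

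Lysosomal genes were higher in 9 of 20 and lower in 0, with a median log2 ratio of 0.31. For the sum of the list cluster 2 ranked 3 of 16, and cluster 15 was the highest. Cd63, a membrane protein of late endosomes, was 275 against 212 CPM, and the cysteine protease Ctsb was just under the fold at 495 against 401 CPM. Psap, from which the saposins are cut, was 227 against 191 CPM. Class II molecules meet their peptides in this compartment, and Ctsl and Lgmn stand in both lists.

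Secreted proteins of the uterine lumen split. Of 20, 5 were higher (Cxcl17, Lcn2, Ltf, S100g and Sftpd) and 8 lower, with a median log2 ratio of -0.12. S100g, a calcium-binding protein that steroid hormones regulate, was 878 against 540.1 CPM. Prap1, the proline-rich acidic protein, was 600.4 against 2657 CPM (ratio 0.226), and Clca1, a secreted regulator of chloride conductance, 804 against 1794 CPM. Wfdc2 and Spink12, protease inhibitors of secretions, were within the fold at 3696 against 4147 CPM and 2229 against 1864 CPM.

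Cell cycle genes were low. All 21 at 10 CPM or more were lower by the fold, with a median log2 ratio of -1.19, and their list sum ranked 15 of 16. Pclaf, a partner of the replication clamp, was 5.80 CPM (4.64 to 7.16) against 61.1 CPM, Ube2c, which drives the exit from mitosis, 7.68 against 50.9 CPM, and Top2a 4.65 against 34.0 CPM. Mki67 was 1.42 against 8.74 CPM, and a Mki67 UMI was found in 0.187% of thinned cluster 2 cells against 1.91% of the others (3.18% and 10.5% without thinning). The lowest sum belonged to cluster 1 and the highest to cluster 6, which held 216 CPM of Pclaf.

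Genes of squamous and basal epithelium were also low. Of 8 at 10 CPM or more, 0 were higher and 6 lower, with a median log2 ratio of -1.63. The sum of the list was 282 CPM in cluster 2, 667 CPM in the other clusters and 2079 CPM in CO epithelium. The list therefore does not mark squamous or basal cells alone. Krt5, a keratin of basal layers, was 10.6 against 82.4 CPM, and 645 CPM in cluster 5. Sprr1a, of the cornified envelope, was 12.9 against 56.2 CPM, Serpinb7 57.3 against 202 CPM and Upk1a, a plaque protein of urothelium, 16.9 against 74.4 CPM. Olfm4, which with Rad51b was lower among the 7 genes that the study linked to cancer cells, was 9.77 against 63.5 CPM and 685 CPM in cluster 5. Cluster 5 had the highest level of Krt5, Upk1a and Olfm4, and cluster 2 ranked 10 to 12 of 16 for these 3 genes.

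Immediate early and stress genes, which dissociation of tissue can switch on, were lower in 14 of 20 and higher in 1 (Gadd45a, named after its value was seen), with a median log2 ratio of -0.59. Fos was 54.6 against 196 CPM, and 2519 CPM in cluster 9. Cluster 2 ranked 9 of 16 for Fos and for the sum of the list.

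Housekeeping genes and other cell types gave no comparable difference. Of 28 cytosolic ribosomal protein genes 0 were higher and 1 lower, and of 13 genes of the mitochondrial genome 1 was higher and 0 lower, at a median of 11.7% mitochondrial UMIs per cell. Summed stromal markers were 4.52 against 4.48 CPM, mesothelial markers 24.0 against 22.5 CPM, endothelial markers 1.75 against 1.65 CPM and smooth muscle markers 1.89 against 1.70 CPM.

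**Figure D4:**
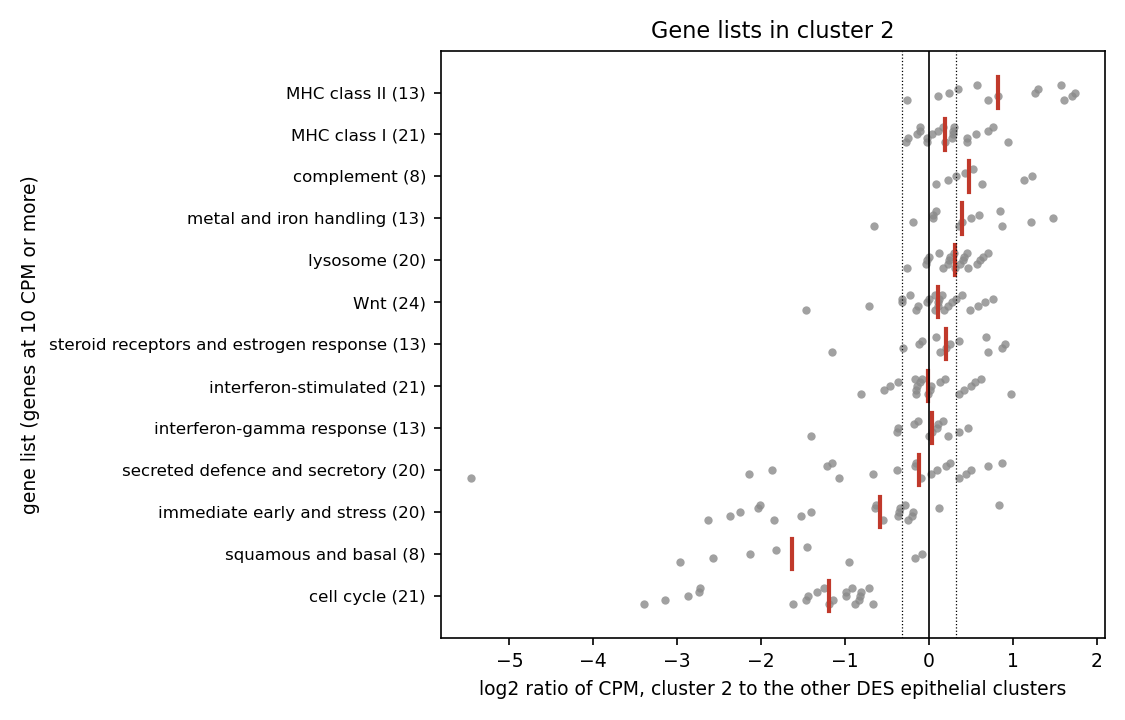
Log2 ratio of CPM in cluster 2 to the other DES epithelial clusters for each gene of 13 lists (grey points, numbers of genes at 10 CPM or more in brackets), with the list median in red. The dotted lines mark a log2 ratio of 0.32 in either direction. MHC class II has the median farthest to the right (0.83), and squamous and basal (-1.63) and cell cycle (-1.19) the medians farthest to the left.

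Wnt genes, which the study followed, and genes of the hormone response showed a few higher members. Of 24 Wnt genes 6 were higher (En2, Fzd6, Porcn, Wnt5a, Wnt7a and Wnt7b) and 2 lower (Ccnd1 and Ccnd2, which the cell cycle list holds too), with a median log2 ratio of 0.11. Porcn, the acyltransferase without which Wnt proteins are not secreted, was 184 CPM (177 to 191) against 131 CPM and the highest of 16, with cluster 1 within its interval at 181 CPM. Wnt7a, an epithelial ligand needed for uterine glands to form, was 89.8 against 59.9 CPM, and beta-catenin, Ctnnb1, 530.0 against 489 CPM. Of 13 genes of steroid receptors and the estrogen response 5 were higher (Greb1, Lcn2, Ltf, Mycn and Stc2) and 1 lower (Clca1). The sum of that list was highest in cluster 1, at 15957 CPM, and cluster 2 ranked 5 of 16, at 10080 CPM. Lcn2, Ltf and Clca1 are those described above.

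Lists of gland, luminal and proposed stem cell genes each had members on both sides. The gland list gave 2 higher and 4 lower of 10, with the gland regulator Foxa2 at 6.87 against 17.1 CPM. The luminal list gave 2 higher and 5 lower of 11. The stem cell list gave 4 higher and 2 lower of 7, with Plat, the tissue plasminogen activator, at 168 against 103 CPM and the growth factor Ptn at 327 against 524 CPM. Aldh1a1 was 1.95 against 2.71 CPM and Axin2 8.63 against 9.51 CPM. Some genes of these lists were chosen by the study on cells of this series, which makes them no independent evidence of a direction, and others come from earlier work.

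Cluster 2 was most like cluster 1. Over 7976 genes, with log2 CPM centred on the mean of the clusters, its correlation was 0.498 with cluster 1, 0.278 with cluster 7 and 0.199 with cluster 9, and the lowest was -0.52 with cluster 4. It is a description of clusters that share a library.

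Against cluster 1 (536 cells), 12.6% of 8094 genes were higher in cluster 2 by the fold and 8.56% lower. Lypd8, an anchored protein of epithelial surfaces, was 45.8 CPM in cluster 2 and 729 CPM in cluster 1, and Prap1, Upk1a and Olfm4 had ratios of 0.0899, 0.153 and 0.172. In the other direction Pla2g7 had a ratio of 3.52, Serpinf1 3.08, Clu 2.95, Ifitm1 2.71 and H2-Ab1 2.64. Cfi was level between these clusters, with a ratio of 0.988, and C3 was lower in cluster 2, with a ratio of 0.483.

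Against cluster 7 (215 cells), which held more class II RNA, 17.5% of 8200 genes were higher in cluster 2 and 11.7% lower. The ratio was 0.854 for Cd74, which is within the fold, and 0.787 for H2-Ab1, 0.782 for H2-Aa, 0.747 for H2-Eb1 and 0.668 for Ciita, which are past it. Lypd8 (7.34), Pla2g7 (4.74), Cfi (4.03), Cyp21a1 (3.91) and Mme (3.45) were higher in cluster 2, and Serpinb7 (0.1298) was lower. After thinning, 91.2% of cluster 7 cells held a Cd74 UMI and 71.6% a chain UMI. Of the other genes with large ratios, Serpinf1 (1.68) was higher in cluster 2 by a smaller fold, and Cp was lower, at 119 CPM against 177 CPM.

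Against cluster 9 (190 cells), 9.16% of 8348 genes were higher and 13.8% lower. Cd74 had a ratio of 1.31. Fos (0.0217), Jun (0.104), Top2a (0.0778) and Krt14 (0.171) were lower in cluster 2, and Rmst (2.65) and Mme (2.04) were higher.

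The authors' clustering of CO and DES epithelial cells together split the 535 cells unequally. Integrated cluster 5 took 459 of them (85.8%), and they made up 76.8% of the clustered DES cells in it. Integrated cluster 12 took 33, integrated cluster 2 took 31 and 6 other integrated clusters took 12. The cells of integrated cluster 5 had 1389 CPM of Cd74, 86.5 CPM of Serpinf1, 2861 CPM of Ifitm1 and 114.5 CPM of Mme. The 33 cells of integrated cluster 12 had more Cd74 (2453 CPM, 2353 to 2555) and H2-Ab1 (363 CPM), and less Serpinf1 (12.9 CPM), Ifitm1 (1116 CPM) and Mme (29.99 CPM). The 31 cells of integrated cluster 2 had less Cd74 (439 CPM) and Serpinf1 (21.1 CPM), and more Prap1 (1230 CPM). High class II RNA and high Serpinf1, Ifitm1 and Mme were thus not held by the same cells throughout. Integrated cluster 5 also held 139 DES cells of other clusters. They had 967 CPM of Cd74, 51.1 CPM of Serpinf1, 2643 CPM (2601 to 2686) of Ifitm1 and 71.7 CPM of Mme. Their Ifitm1 was thus close to its level in cluster 2 as a whole.

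CO epithelium had little class II RNA. Pooled over 2583 clustered CO epithelial cells (78801159 UMIs, median 23458), Cd74 was 28.8 CPM, H2-Ab1 7.30 CPM, H2-Eb1 2.37 CPM, H2-Aa 3.48 CPM and Ciita 0.419 CPM. Cd74 ran from 4.41 to 150.3 CPM over the 15 CO clusters, so every one lay below cluster 2. A thinned cell held a Cd74 UMI in 6.79% and a chain UMI in 3.67% of CO cells (30.2% and 23.2% without thinning). With 1 library per treatment, the treatment and the library cannot be told apart in these values.

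Other genes of cluster 2 stood differently in CO epithelium. Serpinf1 was 90.3 CPM in the CO cells pooled, above its cluster 2 level, and 33.1 to 164 CPM over the CO clusters. Cp was 285 CPM, Ctsl 1220 CPM and Clu 231 CPM in the CO cells, all above cluster 2. Cfi was 76.3 CPM, Ifitm1 447 CPM, Porcn 20.01 CPM and Wnt7a 8.997 CPM, all below it.

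The sections gave the only comparison with replicate mice. It asked whether the genes of cluster 2 differed between CO and DES epithelium, and it cannot show cluster 2 itself, since a spot holds several cells of all kinds. In each section the fifth of the spots with the highest sum of 8 epithelial genes was summed, which gave 286 and 364 spots in CO and 302 and 261 in DES, and 2240676 to 4196992 UMIs. Of 11700 genes tested with edgeR's quasi-likelihood test, 4.26% rose and 2.68% fell in DES at an adjusted p (Benjamini-Hochberg) under 0.05. Of the class II genes 14 had enough counts to be tested, of which 7 rose and 1, Ctsl, fell. In such sums, fewer cells of a type and less RNA per cell cannot be told apart.

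Cd74 was 116 and 94.4 CPM in the CO sections and 716 and 2176 CPM in the DES sections. Both DES sections lay above both CO sections, and they differed from each other. The log2 difference was 3.48 (SE 0.58, edgeR adjusted p = 0.0306). H2-Ab1 was 48.8 and 43.4 CPM against 308 and 715 CPM (log2 3.16, SE 0.46, edgeR adjusted p = 0.0224). H2-Aa was 34.3 and 24.7 CPM against 254 and 536 CPM (log2 3.43, SE 0.45, edgeR adjusted p = 0.0179). H2-Eb1 was 17.2 and 17.9 CPM against 130.0 and 643 CPM (log2 4.16, SE 0.79, edgeR adjusted p = 0.0416). For all 4 genes DES section 2 was the higher of the DES pair. The share of all tested genes whose DES sections lay apart from the CO sections was not counted. Without DES section 2 the log2 differences were 2.43 for Cd74, 2.40 for H2-Ab1, 2.76 for H2-Aa and 2.55 for H2-Eb1, and no adjusted p passed 0.05 (edgeR, 0.0775 to 0.0801). Without CO section 2 they were 3.32, 3.07, 3.20 and 4.18, with the lone CO section assumed to vary like the DES sections. With the top 40% of spots Cd74, H2-Ab1 and H2-Eb1 lost their calls (edgeR adjusted p = 0.0506 to 0.0808), and with all spots all 4 genes did (0.0536 to 0.115).

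H2-DMa, H2-DMb1 and Ctss rose as well, by 3.33, 2.46 and 1.42 on the log2 scale (edgeR adjusted p = 0.0415, 0.0383 and 0.0290). Ciita was 2.14 and 1.09 CPM against 4.83 and 16.96 CPM and did not pass (edgeR adjusted p = 0.127). Ctsl fell by 1.93 on the log2 scale, from 1589 and 968 CPM to 505 and 334 CPM (edgeR adjusted p = 0.0362). Without DES section 2, H2-DMa and H2-DMb1 lost their calls, at log2 differences of 2.23 and 1.73. The calls of Ctss and Ctsl were lost without either DES section. Their log2 differences were 1.56 and -2.23 without DES section 1, and 1.29 and -1.68 without DES section 2. Without CO section 2 the log2 differences were 3.49 for H2-DMa, 2.38 for H2-DMb1, 1.63 for Ctss and -2.26 for Ctsl. The call of H2-DMb1 was lost under every other choice of spots (edgeR adjusted p = 0.0559 to 0.0670), and those of H2-DMa and Ctsl with the top 40% of spots and with all spots (edgeR adjusted p = 0.0649 to 0.118).

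**Figure D5:**
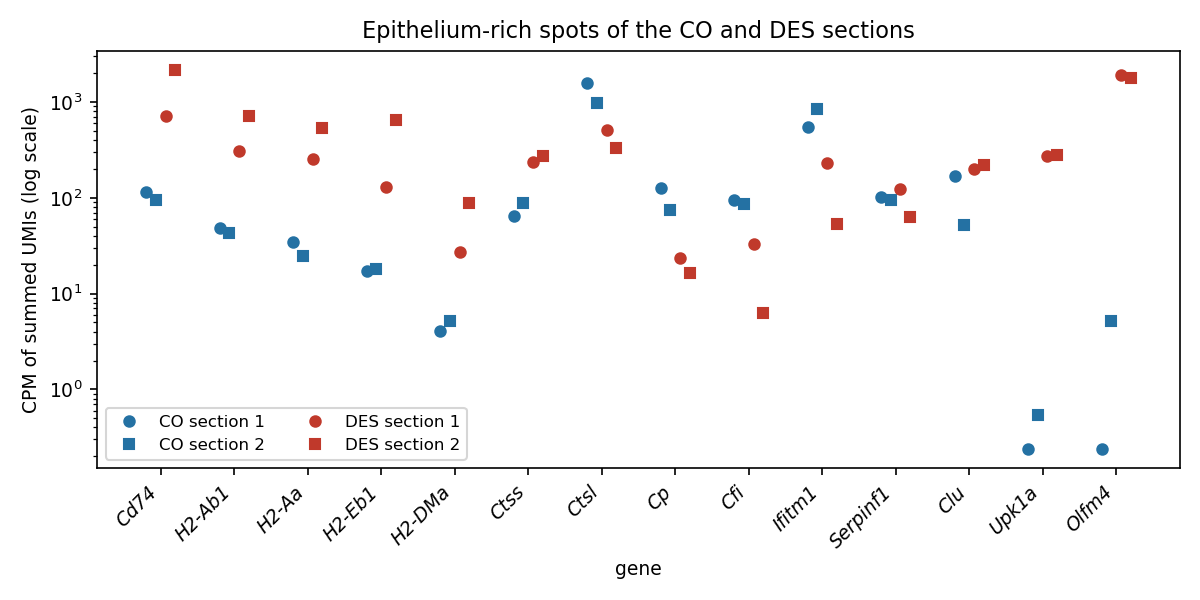
CPM (log axis) of summed UMIs in the epithelium-rich spots of 2 CO (blue) and 2 DES (red) sections, with 1 point for each section. Both DES sections lie above both CO sections for the class II genes, Ctss, Clu, Upk1a and Olfm4. They lie below them for Ctsl, Cp, Cfi and Ifitm1, and the sections overlap for Serpinf1. The edgeR test on all sections called none of Clu, Cfi and Ifitm1.

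Leukocyte genes were also higher in the same spots. The 13 leukocyte markers came to 285 and 438 CPM in the CO sections and to 2268 and 1244 CPM in the DES sections, and Tyrobp to 28.6 and 51.3 CPM against 269 and 153 CPM. Within DES the marker sum and Tyrobp were higher in section 1 and Cd74 in section 2, and the lymphocyte genes Cd79a and Cd3e had 7 and 0 UMIs in section 1 and 10 and 9 UMIs in section 2. Outside the epithelium-rich spots Cd74 was 197 and 362 CPM in CO and 925 and 2363 CPM in DES. In the DES spots Krt5 reached 5355 and 4190.2 CPM, against 10.6 CPM in cluster 2. The part of leukocytes and of basal epithelium in the class II difference was not tested.

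The other genes with large ratios in cluster 2 did not share a direction in the sections. Of all 15 with the largest ratios 14 were tested, of which 5 rose (Cd74, H2-Aa, H2-Ab1, H2-Eb1 and Basp1) and 1 fell. Of all genes tested 4.26% rose and 2.68% fell. Cp fell from 126 and 74.1 CPM to 23.3 and 16.5 CPM (log2 -2.65, SE 0.36, edgeR adjusted p = 0.0195). Basp1 went from 2.38 and 4.34 CPM to 25.03 and 33.5 CPM (log2 2.81, SE 0.40, edgeR adjusted p = 0.0220). Both calls were lost without either DES section, at log2 differences of -2.88 and -2.44 for Cp and 3.04 and 2.56 for Basp1. Without CO section 2 the log2 differences were -2.99 for Cp and 3.27 for Basp1. Serpinf1 was 101 and 93.9 CPM against 125 and 63.4 CPM (edgeR adjusted p = 0.528), and the sections overlapped. Ifitm1 was 544 and 855 CPM against 233 and 53.6 CPM (log2 -2.61, edgeR adjusted p = 0.0783) and Cfi 95.1 and 86.3 CPM against 32.9 and 6.25 CPM (log2 -2.53, edgeR adjusted p = 0.0745). Ifitm1 and Cfi passed as lower in DES with DESeq2 (adjusted p = 0.000208 and 0.00121). They also did with all spots (edgeR adjusted p = 0.0431 and 0.0210) and with the replicate block (0.0484 and 0.0230). Neither passed with the top 10% of spots (edgeR adjusted p = 0.132 and 0.170) or with no filter beyond 1 count (0.0547 and 0.0528). The same held with DESeq2 size factors within edgeR (0.0770 and 0.0736). With the top 40% of spots Cfi passed (edgeR adjusted p = 0.0243) and Ifitm1 did not (0.0655). Over the sections left out in turn the log2 difference ran from -3.98 to -1.92 for Ifitm1 and from -4.13 to -1.80 for Cfi, the largest without DES section 1 and the smallest without DES section 2. Of the 10 genes with the smallest ratios, picked as low in cluster 2, 4 rose (Olfm4, Upk1a, Sprr1a and Serpinb7), against 4.26% of all genes tested. Upk1a, with the lowest adjusted p of the 4, rose from 0.238 and 0.543 CPM to 274 and 278 CPM (log2 9.05, SE 0.35, edgeR adjusted p = 0.00421). Olfm4, Sprr1a and Serpinb7 had log2 differences of 9.13, 3.01 and 3.57 over all 4 sections. Without DES section 2 their calls were lost, at 9.16, 2.93 and 3.56. Without DES section 1 the calls of Sprr1a and Serpinb7 were lost, at 3.09 and 3.59. Without CO section 2 the log2 differences were 12.4 for Olfm4, 9.63 for Upk1a, 2.54 for Sprr1a and 2.85 for Serpinb7. Upk1a had a log2 difference of 9.02 without DES section 2.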

How the data were processed

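The authors dissociated uteri, made 10x Genomics 3′ libraries and used Cell Ranger 3.0.1 on mm10 to count the UMIs of each gene in each cell. Per the methods potential doublets were removed. Whether this came before the deposited table was not stated, and no doublet caller was run here. The deposited single-cell values are raw counts of 24077 genes, and the authors' metadata gave the cell types and clusters. Per the methods, section UMIs were counted with Space Ranger 1.2.2 on mm10, and the authors deposited raw counts per Visium spot. Which mouse a cell came from was not given in the sources used here.

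UMIs were summed over cells and scaled to CPM, with exact 95% intervals. Genes at 10 CPM or more in either group were called at a log2 ratio of 0.32 or more in either direction. Cells were thinned to 3000 UMIs (seed 20230). Sections hold 1357 to 1834 spots, and spots under 500 UMIs were left out. The summed spots were compared with edgeR 4.0.16 (TMM, its filter on low counts, Benjamini-Hochberg). The fit was also run on simulated counts with the same fixed spread for every gene. Such counts cannot show how the test does on sections that vary more. With 2 sections against 2 an exact test over sections cannot pass 0.05, so each p depends on edgeR sharing its estimate of spread among genes.

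The genes named were those with the 15 largest and 10 smallest ratios at 50 CPM or more, the class II list, up to 4 genes with the highest CPM of each other list, and a set of epithelial and stem cell genes. Genes outside this rule are said to be named after their values were seen, as were list members given by name only. The cluster, the lists and the rule were chosen with earlier results of these data known. Ifi30 and Mx2 were not in the table used here, and some genes that the rule or a count covers are not reported by name here. Alternatives were other folds, minimums, scalings, cells, spot sets, DESeq2 1.42.0, a replicate block and leaving out each section. Scripts ran under Python 3.11.15 and R 4.3.3.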

Additional observations from a re-analysis of the deposited data

How the results depend on the processing

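In cluster 2, 1262 genes were past the fold (645 higher, 617 lower). At a fold of 1.5 there were 396 (151 higher, 245 lower), and at a minimum of 50 CPM 374 (196 higher, 178 lower). With no minimum beyond 1 UMI 2855 were counted (1139 higher, 1716 lower). Other scalings and sets of cells gave 1266 to 1520. Of 109 named genes 59 were past the fold, and 56 to 59 of these kept it under the alternatives for cells. The ratio left its counting interval for 65 of the 109 without the cells with 2 or more leukocyte UMIs, 54 with the mean of the cluster CPMs, 48 with the mean over cells, 32 within integrated cluster 5 and 4 to 15 under the others. The share of cluster 2 cells with a class II chain UMI (54.9%) was 62.5% at 5000 UMIs, 80.0% without thinning and 48.3% without the 243 cells with 2 or more leukocyte UMIs. It was 50.8% when Cd68 and Lyz2 did not count, which was chosen after seeing the data. Leaving cells out also changed the random draw for the cells kept. The spread that comes from the draw was not measured.

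In the sections 812 genes passed. The number was 538 with the top 40% of spots and 10 to 2827 when 1 section was left out, 10 of them without DES section 2, 102 without DES section 1, 2725 without CO section 2 and 2827 without CO section 1, where the lone section is assumed to vary like the other group. With the section number as a replicate block 900 passed. The correlation of same-numbered sections' deviations was 0.0334, so the numbers were not taken to pair them. DESeq2 gave 1167. With the top 40% of spots the edgeR adjusted p was 0.0620 for Cd74, 0.0506 for H2-Ab1, 0.0808 for H2-Eb1 and 0.0649 for H2-DMa, and with all spots 0.0687, 0.0625, 0.115 and 0.118, and 0.0536 for H2-Aa. It was 0.0670 and 0.0559 for H2-DMb1, 0.0867 and 0.116 for Ctsl and 0.0624 and 0.0522 for Serpinb7, and with the top 10% 0.0635 for H2-DMb1.

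Of the 34 named genes tested, 1 lost its call with the top 10% of spots, 7 with the top 40%, 8 with all spots, 6 without DES section 1 and 13 without DES section 2, while 7 gained one with DESeq2, 3 with the replicate block, 1 with the top 40% of spots, 2 with all spots, 3 without DES section 1, 7 without CO section 1, beside Cyp21a1 with a change of sign, and 9 without CO section 2. Some genes with no call changed sign on the log2 scale, and the cause was not tested. Over the sections left out in turn the values ran from -0.90 to 0.022 for Serpinf1, -1.16 to 0.61 for Pla2g7, -2.46 to 1.138 for Cyp21a1 (edgeR adjusted p = 9.24e-05 without CO section 2 and 0.0123 without CO section 1, in opposite directions), -0.28 to 1.59 for Emb, -1.18 to 1.39 for Pclaf, -2.10 to 0.48 for Fos, -0.000439 to 0.077 for Rfx5, -0.19 to 0.62 for Rfxank and -0.51 to 0.35 for Lgmn. With the top 10% of spots Rfx5 was -0.34, Rfxank -0.071 and Lgmn 0.032, and with all spots Rfxap was 0.050 and Rfxank -0.25.

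Depth limits genes under about 1 CPM, which in cluster 2 is some 15 UMIs.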

Other observations

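Class II RNA was also present in DES cells outside the clustered epithelium. DES basal cells (integrated clusters 8 and 11, 603 cells) held 22.5 UMIs of H2-Ab1 for every 100 of Cd74, against 14.4 in cluster 2, and 51.8% of their thinned cells held a Cd74 UMI. DES mesothelial cells held 63.7 UMIs of H2-Ab1 per 100 of Cd74, with a Cd74 UMI in 24.96% of thinned cells, and CO mesothelial cells 62.8, with 9.63%. In cluster 15 (54 cells), where Cd74 was within counting error of cluster 2, Clu was 467 CPM and Ctsl 761 CPM, against 112 and 177 CPM in cluster 2.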
